A study of Homo sapiens with 7 samples.

Results

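The 39 protein-coding genes of the human HOX clusters were examined for N6-methyladenosine (m6A), a methyl mark on adenosines inside messenger RNA. They were taken as every row of the deposited table whose gene symbol is HOXA, HOXB, HOXC or HOXD followed by a number. This gave 39 of 25918 rows, 1 row per gene, with 11 genes of HOXA, 10 of HOXB, 9 of HOXC and 9 of HOXD. By their labels, all libraries came from HepG2 cells, an established line from a human liver cancer, grown without treatment. Poly(A) RNA was cut into fragments of about 100 nt, and 4 libraries were made after precipitation with an anti-m6A antibody and 3 from input RNA without antibody. The study asked which sequences carry the mark.

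The table joins all 7 libraries, so it has no value per library, and neither depth nor replicate error is known. Each row has an expression quantile, a rank from 0 to 1 among the rows, and for each peak its position along the transcript, its exon, its segment and a score of the authors whose scale is not stated. Values below are therefore given without an error and without a test. Of 12 markers of hepatocytes and HepG2 cells, 6 (ALB, AFP, TTR, APOA2, APOB and SERPINA1) stood at the lowest quantile of the table, 0.314. None of the 12 had a peak. The highest of the 12 was FGB at 0.619. Of 5 general epithelial markers, KRT8, KRT18 and KRT19 stood at 0.996, 0.992 and 0.964 and EPCAM and CDH1 at 0.498 and 0.368, with no peak in any of them. Of 5 fibroblast or mesenchymal markers, VIM stood at 0.997, COL1A1 at 0.782, COL3A1 at 0.675, and COL1A2 and PDGFRA at 0.314, with no peak. Of 8 markers of ovarian or Muellerian epithelium, MSLN, also a marker of mesothelium, stood at 0.968 with 3 peaks. MUC16 and SOX17 followed at 0.667 and 0.648, and the rest stood at 0.314 to 0.496. The median of the 8 was 0.435, and 3 of them had a peak. For comparison, a peak was listed for 35.0% of all coding rows. It was listed for 0 of the 4692 coding rows at the lowest quantile and for 69.3% of those from 0.9 to 1. The 12 markers of hepatocytes and of the labelled cell line thus ranked low, with a median of 0.325. The identity of the cells was not tested, nor was the bearing of these ranks on the HOX values.

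HOX genes encode transcription factors that bind DNA through a homeodomain and give cells their position along the body axis. Each cluster is numbered by paralog group, from anterior to posterior, and genes of a group in different clusters descend from a common ancestor. The homeobox, which encodes the homeodomain, lies near the end of the coding sequence, usually in the last exon. m6A is deposited mainly at the consensus RRACH, in which R stands for a purine and H for any base but G, with GGACU as a favoured form, and is known to gather around stop codons and in long exons.

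HOX rows spanned much of the expression range, and the HOXD cluster ranked lowest. The median quantile was 0.735 in HOXA, 0.783 in HOXB, 0.727 in HOXC and 0.412 in HOXD, against 0.646 over all 39 genes and 0.591 over all coding rows of the table. The highest were HOXC10 (0.928), a posterior gene, and HOXB6 (0.912), a trunk gene. In HOXA the lowest was HOXA2 (0.503), which patterns the hindbrain, and the highest were HOXA3 (0.863), HOXA11 (0.862) and HOXA10 (0.856). In HOXB, HOXB1 stood at 0.395, while HOXB7, HOXB5 and HOXB2 stood at 0.856, 0.833 and 0.816. HOXC12, HOXD1 and HOXD12 sat at the lowest quantile of the table. No HOXD gene passed HOXD9 at 0.687. The quantile is a rank, and whether it allows for transcript length is not given in the sources used here.

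**Figure D1:**
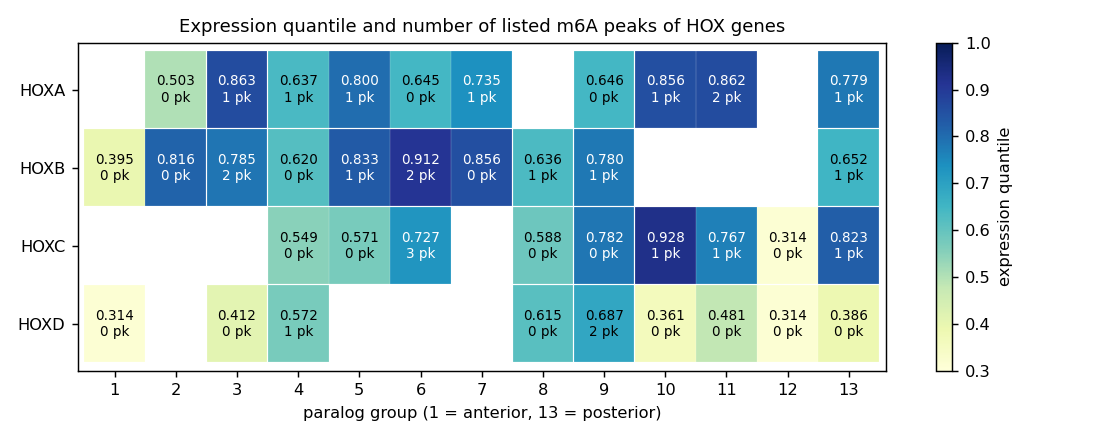
Each square is 1 HOX gene, placed by cluster (rows) and paralog group (columns), coloured by its expression quantile, with the quantile and the number of listed peaks (pk) printed inside. Blank squares carry no value here. HOXA, HOXB and HOXC hold the darker squares, and HOXD10 to HOXD13 stand between 0.314 and 0.481 with no peak.

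At least 1 peak was listed for 19 of the 39 HOX genes (48.7%). The same was true of 27.9% of all rows, 35.0% of coding rows and 45.8% of coding rows above the lowest quantile. Of the 36 HOX genes above that quantile 52.8% had a peak, which is near the last of these shares. The 19 genes carried 25 peaks. HOXC6 had 3, HOXA11, HOXB3, HOXB6 and HOXD9 had 2 each, and the other 14 had 1. The mean of 1.32 peaks per HOX gene with a peak was below the 1.76 of all rows with a peak. By cluster, 7 of 11 HOXA, 6 of 10 HOXB, 4 of 9 HOXC and 2 of 9 HOXD genes had a peak. By position, 2 of 8 anterior genes (groups 1 to 3), 8 of 15 central genes (4 to 8) and 9 of 16 posterior genes (9 to 13) had one. The median expression quantile rose in the same order, from 0.506 to 0.637 and 0.727.

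Peaks went with expression rank. HOX genes with a peak had a median quantile of 0.780, and those without one had 0.529. Of 25 HOX genes at a quantile of at least 0.6, 18 had a peak (72.0%), beside 64.8% of coding rows in that range. Of the 11 between the lowest quantile and 0.6, only HOXD4 did. In the range from 0.7 to 0.8, 7 of 8 HOX genes had a peak, beside 65.1% of coding rows. From 0.6 to 0.7 it was 4 of 8, beside 52.1%. The counts per range are small, and the share of HOX genes was above that of coding rows in some ranges and below it in others.

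**Figure D2:**
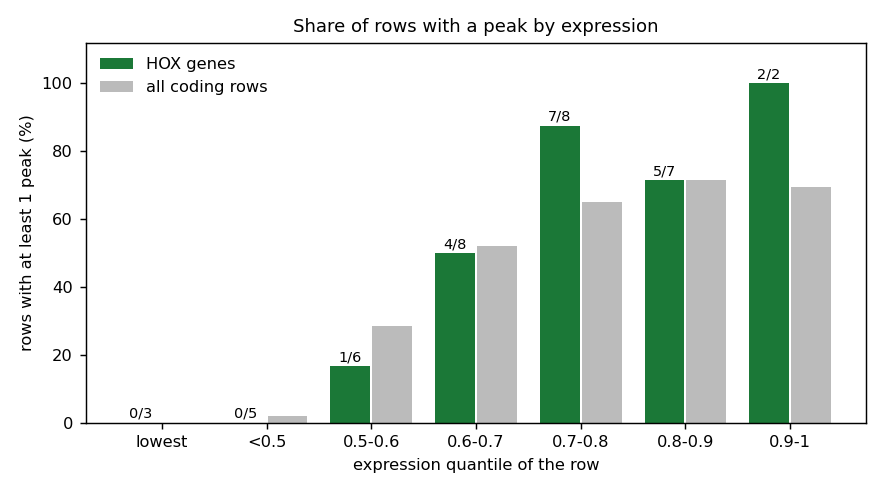
Bars give the share of rows with at least 1 peak (vertical axis, percent) in ranges of expression quantile (horizontal axis), for HOX genes (green, with the count of genes above each bar) and all coding rows (grey). Above a quantile of 0.6 the share is 72.0% of HOX genes and 64.8% of coding rows, and HOX genes have a peak in 7 of 8 cases between 0.7 and 0.8.

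The peaks of HOX transcripts lay mostly around the stop codon. The authors placed 15 of the 25 (60.0%) in their stop codon segment, which reaches 200 nt to either side, against 27.6% of the 12424 annotated peaks of all coding rows. The coding sequence held 3 peaks, against 36.6% of all, the rest of the 3' UTR 4 against 20.5%, the transcript start 2 against 12.5%, and the rest of the 5' UTR 1. Counted by gene, 14 of the 19 had a stop codon peak (73.7%), beside 47.4% of coding rows with a peak. The 17 HOX transcripts that could be placed in full on a reference transcript were 1296 to 3618 nt long (median 2015), and the segment covered 20.8% of the positions of the 18 placed in full or in part. The 647 transcripts with a peak in the whole table that matched a reference exactly had a median length of 3285 nt, and the segment covered 9.96% of their positions. Among these, the stop codon segment held 29.1% of 86 peaks in transcripts of 2 exons and 32.4% of 410 peaks in transcripts of up to 3000 nt.

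**Figure D3:**
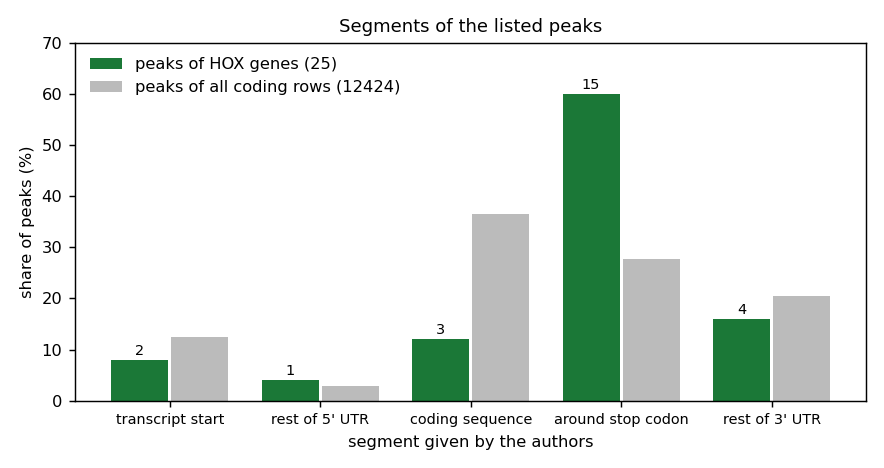
Bars give the share of peaks (vertical axis, percent) in each segment named by the authors (horizontal axis), for the 25 HOX peaks (green, counts above the bars) and the 12424 peaks of all coding rows (grey). The green bar around the stop codon, with 15 peaks, is at 60.0% against 27.6%.

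The listed positions were set on GENCODE 29 transcripts for 18 of the 19 genes and 24 of the 25 peaks. HOXA3 was not placed. The rule, which was chosen after the table had been seen, assumes the introns of the reference and lets the transcript ends differ. For HOXC11 only the start could be tied, and its exon 1 was taken from the reference. Segments derived in this way equalled the authors' for 23 of 24 peaks. The exception was a HOXD9 peak listed in the 5' UTR, which fell 13 nt after the reference start codon. Of the 14 stop codon peaks placed, 8 lay before the stop codon and 6 after it, at -139 to 181 nt (median -13.5), and 9 were within 100 nt. The centre of a peak is known only roughly because fragments were about 100 nt long.

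**Figure D4:**
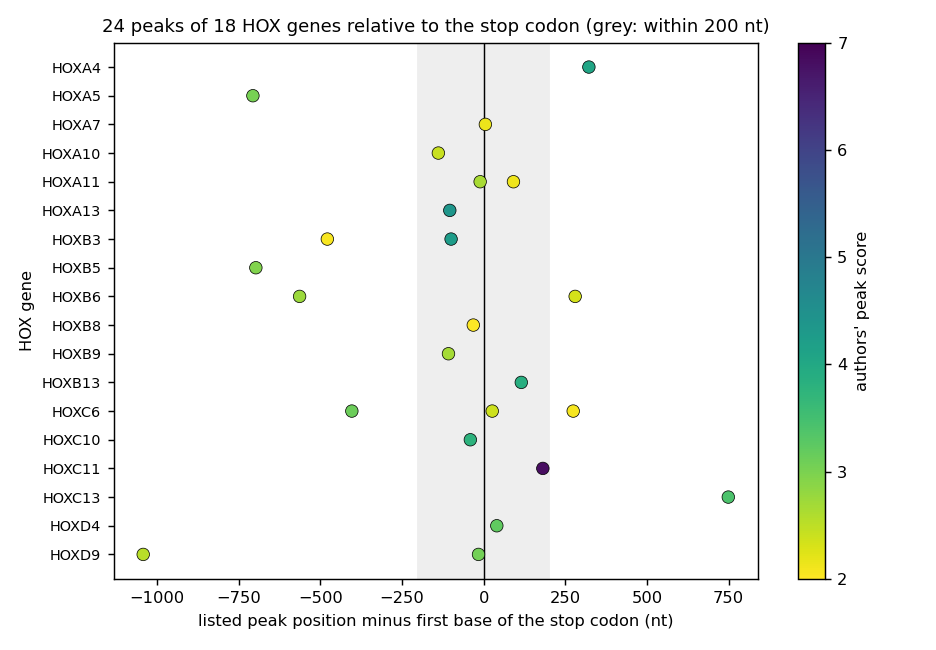
Each point is 1 of the 24 placed peaks, with the distance of its listed position from the first base of the stop codon in nt (horizontal axis, negative before the stop codon), 1 line per HOX gene, coloured by the authors' score. The grey band marks 200 nt on either side and holds 14 peaks, among them the darkest point, HOXC11 at 181 nt.

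To show what lies near the strongest peaks, the sites of the 6 genes with the highest scores are printed here. Each is 25 nt of the GENCODE 29 transcript, 5' to 3' on the sense strand in DNA letters, with an RRACH pentamer in capitals. The pentamer is GGACT where one lies within 50 nt of the listed position, otherwise the RRACH nearest to it. A match is a description of the sequence and not a mapped modified base.
HOXC11: tctcgctgtgGGACAgggaccgggc
HOXA13: tcattactaaGGACAaacggaggcg
HOXB3: ccgggaacctGGACTacaacggggc
HOXA4: tacctgagaaGGACTacttggtatc
HOXB13: ctggggccaaGGACTctgctgagag
HOXC10: tcaagaaaatGAACCgagagaatcg
In HOXB3, HOXA4 and HOXB13 the capitals are GGACT, at -40, -50 and -26 nt from the listed position. In each of them another RRACH lay nearer. It was GGACC at 3 nt in HOXB3, GGACA at -2 nt in HOXA4 and AGACA at -3 nt in HOXB13. In HOXC11 and HOXA13 they are GGACA, at 12 and -12 nt from the listed position, and in HOXC10 they are GAACC.

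RRACH lay within 50 nt of 22 of the 24 placed peaks (91.7%). Over all positions of the same 18 transcripts, at least 50 nt from either end, 68.6% had one that near. Among 1220 peaks of exactly matched transcripts of the whole table the share was 89.9%. GGACT lay within 50 nt of 9 HOX peaks (37.5%), beside 30.7% of those 1220 peaks. The peaks without RRACH were the weaker peak of HOXA11 (position 1103, score 2.14) and the coding sequence peak of HOXB3 (position 1673, score 2.05). Both had DRACH, which also allows U as first base, within 50 nt, as did all 24, beside 93.4% of those 1220 peaks.

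The posterior genes, which specify the caudal trunk, the urogenital tract and the distal limb, held the highest score. HOXC11 (chromosome 12, 52653177 to 52656470, plus strand, coordinates as in the table, whose build is not given in the sources used here) had 1 peak at position 1210 in exon 2 with a score of 6.83. Only 20 of the 7240 rows with a peak had a higher top score, and the next HOX gene was at 4.37. HOXC11 was not among the most expressed HOX genes, with a quantile of 0.767. Its paralog HOXA11 (quantile 0.862), needed for the uterus and the forearm, had peaks at positions 1001 and 1103 of exon 2 with scores of 2.65 and 2.14. The site of the stronger one is an AGACT whose A at the centre lies 4 nt after the first base of the stop codon. HOXD11 stood at 0.481 and had no peak.

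Paralog group 13, the most posterior, had peaks in 3 of 4 genes, and these lay at different places. HOXA13 (chromosome 7, 27203024 to 27206250, minus strand), which shapes the hand, foot and genital tract, had its peak at -104 nt from the stop codon with a score of 4.37. HOXB13 (chromosome 17, 44157125 to 44161110, minus strand), a prostate and tail gene, had it 115 nt after the stop codon with 3.86. HOXC13, a regulator of hair keratins, had it 749 nt after the stop codon, in the 3' UTR, with 3.41. HOXD13 ranked at 0.386 and had none. The site of HOXA13 is in the homeobox, and the most similar stretches of its paralogs are shown to compare them.
HOXA13: tcattactaaGGACAaacggaggcg
HOXD13: tcattaacaaGGACAagcggcggcg
HOXB13: tcatcaccaaGGACAagaggcgcaa
HOXC13: tcatcaccaaAGAGAagcgccggcg
HOXD13 shared 21 of 25 bases, HOXC13 18 and HOXB13 17. GGACA is also present in HOXD13 and HOXB13, and the matching pentamer of HOXC13 is no RRACH. HOXB13 had no listed peak at this place although it holds the letters.

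In group 10, HOXA10, which acts in the uterus and in blood, had a peak at -139 nt from the stop codon (position 1122, score 2.42). HOXC10 had one at -41 nt (position 1084) with a score of 3.78. HOXD10 stood at 0.361 without a peak. In group 9, HOXB9 (quantile 0.780) had a peak at -108 nt (position 847, score 2.67). HOXD9 (0.687) had a stop codon peak at position 1450 with a score of 3.06, at -16 nt, and a weaker one of 2.55 at position 423 in exon 1. HOXA9, a leukaemia-associated gene, and HOXC9 had none at 0.646 and 0.782. The site of HOXB9 in the homeobox is shown beside the same stretch of the other group 9 genes, since all 4 carry GGACC there.
HOXB9: acctcaccagGGACCgtaggcacga
HOXA9: acctcaccagGGACCgcaggtacga
HOXD9: acctcacccgGGACCggcgctacga
HOXC9: atttaaccagGGACCgtcggtatga
HOXA9 shared 23 of 25 bases with HOXB9, HOXD9 20 and HOXC9 19. A peak at that stretch was listed for HOXB9 alone of the 4, so the letters did not go with a listed peak in this group.

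Similar sequence can split reads between paralogs. Within 50 nt of the listed positions, the longest run of bases shared exactly with another HOX gene had a median of 13 nt. The longest, 29 nt, was shared by the HOXA10 and HOXB9 peaks, whose values are uncertain to that extent. Runs were counted without mismatches, and none was taken from unrelated sequence for comparison. They do not measure how far reads were split. The sources used here give neither the read length nor the handling of reads with several matches.

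Central genes act in the neck and trunk. HOXC6 (quantile 0.727) had peaks in the coding sequence at position 414 (score 3.12), 26 nt after the stop codon (2.39) and in the 3' UTR 274 nt after it (2.07). Each of the 3 had a GGACT within 50 nt. HOXA4 (chromosome 7, 27134651 to 27136924, minus strand; quantile 0.637) had its peak in the 3' UTR, 322 nt after the stop codon, with a score of 4.06. HOXD4 (0.572), the least expressed HOX gene with a peak, had one 40 nt after the stop codon with 3.21. HOXA7 (0.735) and HOXB8 (0.636) had weak stop codon peaks, at 2.15 and 2.00, the latter near the lowest score listed anywhere in the table. HOXB6 had 2.32 in the 3' UTR and 2.75 in the coding sequence.

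A peak in the first part of the transcript was listed for HOXA5, HOXB5, HOXB6, HOXC6 and HOXD9. That of HOXC6, at position 414 of exon 1, lay 301 nt after its start codon. HOXA5, a regulator of lung development, had its only peak at position 165 of exon 1 (score 3.02), and HOXB5 had its only peak at position 169 of exon 1 (score 2.95). The authors class both as transcript start peaks. They lay 103 and 109 nt after the start codon, and the coding sequence peak of HOXB6 (position 434 in exon 3) lay 108 nt after its own. The exon 1 peak of HOXD9 was nearer, at the 13 nt given above. HOXC5 (0.571) and HOXA6 (0.645) had none. The sites of HOXA5, HOXB5 and HOXB6 are shown to compare their letters.
HOXA5: agcaattcagGGACTcggcgagcat
HOXB5: acaatgggatGGACCtcagcgtcaa
HOXB6: ggacccgctgAGACAttaccccgcg
The GGACT of HOXA5 was 3 nt and the AGACA of HOXB6 2 nt from the listed position. The GGACC of HOXB5 was 48 nt away, near the limit of the search. The stretch of HOXB5 most similar to the HOXA5 site shared 16 of 25 bases and lay elsewhere in the transcript. In the other direction, the HOXB5 site matched HOXA5 at 21 of 25 bases and at a like place, -653 nt from the stop codon against -650 nt in HOXB5, where HOXA5 has GGATC, which is no RRACH.

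Of the anterior genes, which pattern hindbrain and pharyngeal arches, only group 3 had peaks. HOXB3 (chromosome 17, 43981231 to 44006809, minus strand; quantile 0.785) had a stop codon peak at position 2052 with a score of 4.26, at -100 nt from the stop codon, and the weak coding sequence peak named above. HOXA3 had 1 at position 1419 in exon 3, a stop codon peak with 3.12. HOXB2, at a quantile of 0.816, and HOXB7, at 0.856, were the most expressed HOX genes without a peak together with HOXC9 at 0.782.

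Scores of HOX genes were modest apart from HOXC11. The median of the highest score per gene was 3.12, against 3.55 for all 7240 rows with a peak, and 6 of the 19 HOX genes were at or above the latter. Over single peaks the median was 2.95, against 3.15 for all peaks of coding rows. Stop codon peaks had a median of 3.06 in HOX genes and 3.45 in all coding rows. With a score of at least 3, 12 of all 39 HOX genes had a peak (30.8%), beside 19.3% of all rows. Above the lowest quantile it was the same 12 of 36 HOX genes, beside 31.8% of coding rows. With at least 4, it was 4 genes (HOXC11, HOXA13, HOXB3 and HOXA4), 10.3% of all 39, beside 10.0% of all rows. Above the lowest quantile it was the same 4 of 36, beside 16.6% of coding rows.

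**Figure D5:**
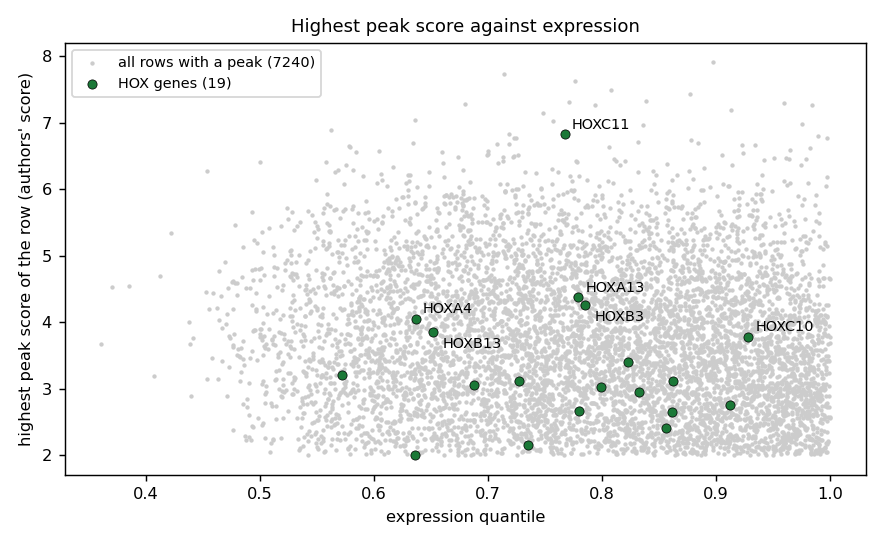
Each point is a row with a peak, with its expression quantile (horizontal axis) and the highest of the authors' scores for that row (vertical axis). Green points are the 19 HOX genes and grey points all 7240 rows. HOXC11 stands at 6.83 and the next HOX gene, HOXA13, at 4.37.

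The sequence around the stop codon was then compared among all 39 genes, in 401 nt of a GENCODE 29 transcript for each. RRACH was present in every window, with a median of 7 sites in the 14 genes with a stop codon peak and 8 in the 25 without one. GGACT was present in 10 of the 14 and in 8 of the 25. The window is wider than the search around a peak: of the 13 genes whose stop codon peak was placed, only 4 (HOXB3, HOXB8, HOXB13 and HOXC6) had GGACT within 50 nt of it, and HOXA7, HOXA11, HOXC11, HOXD4 and HOXD9 had it elsewhere in the window. Among the 12 genes without a stop codon peak at a quantile of at least 0.6, only HOXA6 and HOXB5 had it. HOXA10, HOXA13, HOXB9 and HOXC10 had a stop codon peak and no GGACT in the window. Median GC content was 53.7% with a stop codon peak and 52.1% without. These counts describe 39 related sequences and carry no test.

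Within the 4 cluster spans lay 16 further rows, 12 on the strand opposite to the HOX genes, and 2 had a peak. Of the 16, 11 were above the lowest quantile, and 8 of these were noncoding. Both rows with a peak were among the 8, and 9.98% of all noncoding rows above the lowest quantile had one. HOXA11AS, an antisense RNA beside HOXA11 (quantile 0.851), had a peak at position 261 with a score of 2.19. BC031342, a noncoding row beside HOXA2 on the opposite strand, had one at position 111 with 3.09 and a quantile of 0.966, above every HOX gene. HOTAIR, a long noncoding RNA of the HOXC cluster, stood at 0.663 with no peak. Opposite-strand rows without a peak overlapped HOXA4, HOXA6, HOXA7, HOXB6 and HOXD8. The protocol in the labels names no step that marks the strand, so reads in the stretches that these 5 genes share with their partners cannot be told apart. The shared genomic span, introns included, ran from 17 nt in HOXD8 and 253 nt in HOXA4 to 2482 nt in HOXB6.

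The TALE proteins, which bind DNA together with HOX proteins, also had most of their peaks around the stop codon. Of 11 TALE genes, 8 had a peak (72.7%), which is 80.0% of the 10 above the lowest quantile, beside 45.8% of coding rows above it, and 7 of their 10 peaks were stop codon peaks. PBX2 had the highest score (5.10), followed by PKNOX1 (4.94) and TGIF1 (4.72). MEIS3, at 0.694, was the most expressed without one. Chromatin regulators of HOX genes had a peak in 23 of 28 cases (82.1%), led by the demethylase UTX, now KDM6A (5.98), NSD1 (5.92) and MLL2, now KMT2D (5.85), but not the Polycomb methyltransferase EZH2 at 0.882. Their median quantile was 0.826, and 71.5% of all coding rows between 0.8 and 0.9 had a peak. Only 16 of their 85 peaks were around the stop codon. GMNN, which encodes geminin, a HOX-binding regulator of replication, had 1 stop codon peak (2.78).

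Of the 6 ParaHox and CDX genes, a sister set of the clusters, 5 were at the lowest quantile and none had a peak; GSX2 stood at 0.468. Of 31 other Antennapedia-class or flanking homeobox genes 7 had a peak (22.6%), with DLX1 at 5.14, DLX4 at 3.87 and NKX2-1 at 3.48, each in the 3' UTR, but not HHEX at 0.779. Of 55 paired, LIM, POU, CUT and further homeobox genes 25 had one (45.5%), led by SIX2 (5.65), SIX4 (5.20) and CUX1 (5.16), but not POU6F1 at 0.688. Above the lowest quantile the shares of these 2 lists were 31.8% of 22 and 61.0% of 41 genes, beside 52.8% of HOX genes and 45.8% of coding rows. In the same lists the stop codon segment held 3 of 10 and 19 of 54 peaks. It held 16 of 54 peaks in forkhead and SOX genes, of which 27 of 61 had a peak, and 17 of 79 in ZBTB genes, of which 34 of 37 did. None of these differences from the HOX genes was tested.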

How the data were processed

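The deposited file is 1 table for the 7 libraries, grouped by their titles into 4 m6A-IP and 3 input libraries. Its expression quantile is a fraction that ranks rows, per the file headers and the values, and 8139 rows share the lowest. The peak score is the authors' own score, per the file headers, with no stated scale, and no listed score is below 2.00. No source used here gives the aligner, the peak caller, the annotation or the build. A row without a listed peak may have had too few reads for one.

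Rows were counted with Python 3.11. No test was made, since no column belongs to a single library (0 such columns). Peaks were set on GENCODE release 29 transcripts whose introns were assumed to equal those of the rows. Leading exons of the reference could be left out. The listed exon length fixed the ends, which had to give the same distances between neighbouring HOX genes as in the table. Searches for RRACH used 50 nt around the listed position. The placement function and the motif search were run on simulated transcripts with known answers. There the introns equalled the reference by construction, and motifs were planted within the search window. The rule on distances between neighbouring genes and the one used for HOXC11 were not part of that check. Members and lists were chosen with earlier results of these data known. A gene of a compared list with several rows was counted by its row with the highest score. Shares over coding rows count every row, so the list shares are favoured where a gene had several. Named genes are the HOX genes, of which 1 is counted but not reported here by itself, and for each other list the 3 with the highest score and the most expressed without a peak. Alternatives were a higher minimum score, 1 peak per row, expressed rows alone, wider motifs and other matching.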

Additional observations from a re-analysis of the deposited data

How the results depend on the processing

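HOX genes with a peak numbered 19 by every listed peak, by gene symbol and among rows above the lowest quantile, 12 with a score of at least 3 and 4 with a score of at least 4. Stop codon peaks numbered 15, 13 with only the highest peak of each gene and 8 with a score of at least 3. These were 68.4% and 66.7% of the peaks kept, against 35.3% and 32.0% for all coding rows. Only HOXA4 and HOXB8 matched a reference transcript exactly, and both of their peaks had RRACH nearby under every planned setting. Placing peaks by introns, chosen after seeing the data, gave 22. The median top score of 3.12 became 2.95 over all peaks, and the median quantile of 0.646 became 0.670 above the lowest quantile. No paired analysis was possible because the columns carry no replicate numbers. For the same reason no library could be left out, and depth sets no limit that can be stated.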
